A study of Mus musculus with 20 samples.

Results

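The Hes and Hey genes and Nrarp, many of them switched on when Notch receptors signal, were followed through a study of the circadian factors Clock and Bmal1. The cells were mouse embryonic stem cells (ESC) and presomitic mesoderm colonies made from such cells (iPSM). The 8 genes were taken by symbol: Hes1, Hes3, Hes5, Hes6, Hey1, Hey2, Heyl and Nrarp, each with 1 row among the 55421 transcripts counted.

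Total RNA was sequenced in 20 libraries, 10 from each cell type. Doxycycline (dox) induced Clock together with Bmal1 or a form of it in the lines that carried these transgenes. The dox-treated Clock/Bmal1 lines carried tetO-driven Clock and Bmal1 (mouse symbol Arntl), as clones 12 and 20 in iPSM and clones 1 and 7 in ESC. The ClockBmal1DN lines carried tetO-driven Clock with a Bmal1 form named Bmal1DN in the labels, as clones 7 and 19 in iPSM and clones 5 and 6 in ESC. Every clone was also measured untreated. Each cell type further had a control line, with 1 treated and 1 untreated library. The iPSM colonies came from E14TG2a cells with a pHes7-luc reporter (luciferase under the Hes7 promoter) and had 1000 ng/mL dox for 2 hours. The ESC were of the KY1.1 line and had 500 ng/mL for 6 hours, so cell type, parent line, dose and time cannot be told apart. A group is at most 2 clones. The p-values measure only spread between clones, taken over all groups of a fit and drawing on other transcripts too. Where libraries are paired by clone, it is the spread of the dox ratios between clones.

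When a Notch receptor binds a ligand on a neighbouring cell, its intracellular part is cut free, enters the nucleus and, with the DNA-binding protein Rbpj and a Mastermind co-activator, turns on target genes. Several Hes and Hey genes are among the best known of these targets. They encode basic helix-loop-helix (bHLH) proteins that repress transcription, in part together with Groucho (Tle) co-repressors. Nrarp encodes a small ankyrin-repeat protein that damps the Notch signal. In the presomitic mesoderm, the tissue that is cut into somites, several genes of the pathway are switched on and off in waves, and Hes7 is the core repressor of that oscillator. Clock and Bmal1 form a bHLH-PAS activator that binds E-boxes, such as those near the Per genes.

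The rows cover whole gene bodies, exons and introns together, on mm10. Hes1 (ENSMUST00000023171.7) lies at chr16:30065340-30067796 on the plus strand, and Hes6 (ENSMUST00000086851.1) at chr1:91411483-91413222 on the minus strand. Hes3 (ENSMUST00000094438.1) spans chr4:152285972-152291662 on the minus strand, and Hes5 (ENSMUST00000049621.6) spans chr4:154960923-154962371 on the plus strand. Hey1 (ENSMUST00000042412.4, chr3:8663359-8667256) and Hey2 (ENSMUST00000019924.8, chr10:30832359-30842801) are both on the minus strand. Heyl (ENSMUST00000040821.4, chr4:123233556-123249875) and Nrarp (ENSMUST00000104999.3, chr2:25180758-25183339) are on the plus strand.

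Promoter windows, from 250 bases before to 50 after a transcript start, were read from RefSeq (GRCm38.p6) for Hes5, Hes6, Hey2 and Nrarp, so 4 of the 8 genes matched. The sequences are shown because the induced factor binds E-boxes and because several of the genes are known Notch targets. They are printed 5′ to 3′ on the gene's strand. Capitals mark matches, on either strand, to CACGTG (the E-box that Clock and Bmal1 are known to bind), CACNAG (the N-box known for Hes proteins), CACGNG (a class C site, which also takes in every CACGTG) and TGGGAA (the core that Rbpj is known to bind).
Nrarp, chr2:25180508-25180807, plus strand: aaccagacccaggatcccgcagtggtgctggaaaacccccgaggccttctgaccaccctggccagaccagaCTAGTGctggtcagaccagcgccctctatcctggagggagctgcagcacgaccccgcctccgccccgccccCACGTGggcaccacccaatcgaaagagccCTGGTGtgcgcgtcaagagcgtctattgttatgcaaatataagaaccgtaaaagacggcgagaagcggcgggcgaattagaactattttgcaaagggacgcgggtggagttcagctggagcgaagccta
Hes6, chr1:91413173-91413472, minus strand: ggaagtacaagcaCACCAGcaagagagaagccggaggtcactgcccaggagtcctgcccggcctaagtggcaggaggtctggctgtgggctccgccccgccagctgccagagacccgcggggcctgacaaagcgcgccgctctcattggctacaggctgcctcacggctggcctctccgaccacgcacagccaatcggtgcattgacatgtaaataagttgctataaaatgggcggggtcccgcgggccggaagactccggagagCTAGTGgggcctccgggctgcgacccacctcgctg
Hes5, chr4:154960673-154960972, plus strand: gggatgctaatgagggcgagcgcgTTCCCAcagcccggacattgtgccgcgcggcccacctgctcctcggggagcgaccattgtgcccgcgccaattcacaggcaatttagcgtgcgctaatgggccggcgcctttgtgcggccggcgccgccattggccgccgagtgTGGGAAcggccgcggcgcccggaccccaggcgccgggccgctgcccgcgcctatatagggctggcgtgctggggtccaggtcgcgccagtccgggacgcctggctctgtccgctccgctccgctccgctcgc
Hey2, chr10:30842734-30843033, minus strand: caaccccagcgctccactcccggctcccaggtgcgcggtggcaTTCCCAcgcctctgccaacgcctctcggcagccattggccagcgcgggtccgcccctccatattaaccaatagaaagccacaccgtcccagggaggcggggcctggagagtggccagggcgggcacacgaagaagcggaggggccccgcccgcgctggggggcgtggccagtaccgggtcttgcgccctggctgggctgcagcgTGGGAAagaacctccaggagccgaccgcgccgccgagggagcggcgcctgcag

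Of these windows, that of Nrarp held a CACGTG, starting at position -108 from the transcript start. It also held CACNAG on the minus strand at -179 and -79. The Hes6 window, at the start of the counted transcript, held CACNAG at -237 and, on the minus strand, at 16. Hes5 had TGGGAA at -226 (minus strand) and -82, and Hey2 had it at -207 (minus strand) and -3, so each held a pair of these cores facing opposite ways. A second RefSeq start of Hes6, at chr1:91413989-91414288, held a single CACGNG at -157. Among all 32851 promoter windows of the table, 7.15% held CACGTG, 42.5% CACNAG, 27.5% CACGNG and 25.6% TGGGAA. These are matches of letters, and whether any factor was bound there was not measured.

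Levels of different genes were compared as RPKM, which divides by gene length, here the gene body with its introns, and by library total. In the 10 iPSM libraries the median RPKM was 10.5 for Hes6, 8.71 for Nrarp and 7.37 for Hes1. The other 5 were far lower, at 0.928 for Hey1, 0.664 for Hes5, 0.147 for Hey2, 0.043 for Hes3 and 0.0306 for Heyl. In the 10 ESC libraries Hes6 led with a median of 20.0 RPKM, followed by Hes1 at 3.98, Nrarp at 1.16 and Hey1 at 0.644. Hes5 (0.153), Hes3 (0.0817), Hey2 (0.0654) and Heyl (0.00126) were again low. Dividing by bodies with introns lowers Hey2 and Heyl, whose bodies are the longest of the 8 at 10442 and 16319 bases, against 1448 bases for Hes5. All later levels are CPM, the counts of 1 gene scaled to library totals that were adjusted by scaling factors between libraries (TMM). All folds and log2 values are differences of 1 gene between groups.

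**Figure D1:**
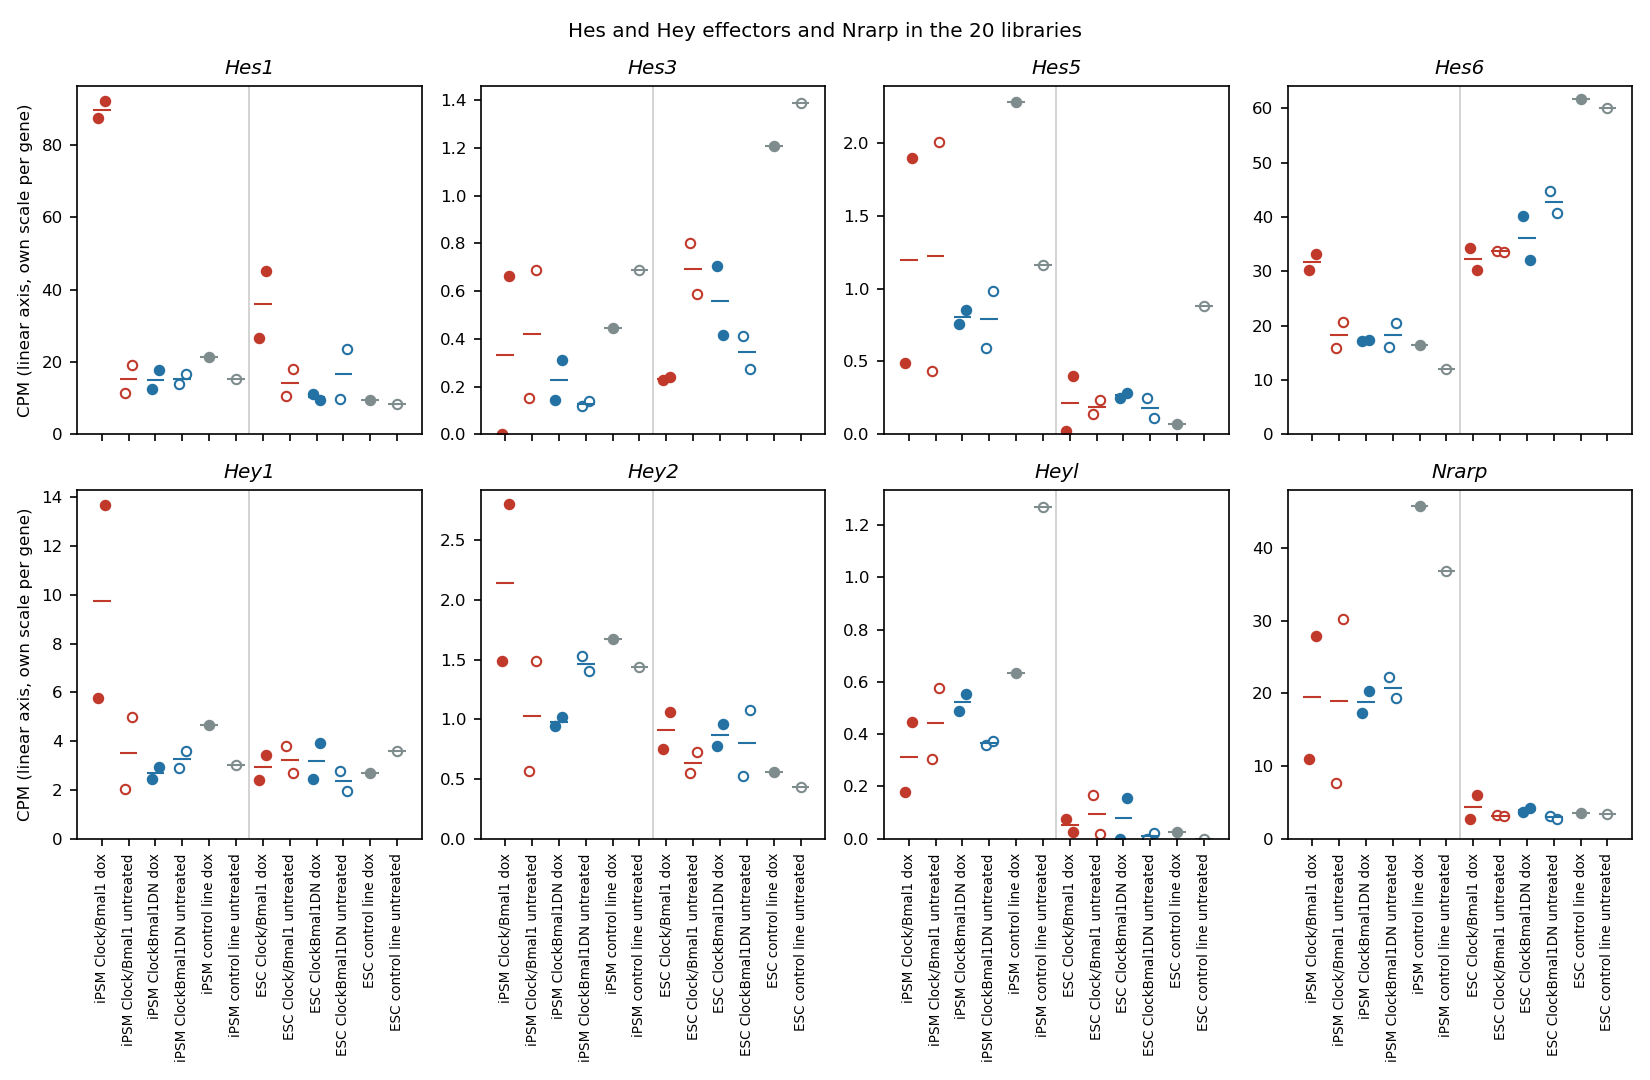
CPM of each of the 8 genes (linear axis, own scale per gene) in the 20 libraries, by group, with iPSM left of the grey line and ESC right of it. Filled points are dox-treated and open points untreated libraries, and bars are group means of 2 clones or 1 control library. Hes1 stands at 87.5 and 92.2 CPM in dox-treated Clock/Bmal1 iPSM, against at most 45.2 CPM in every other library.

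The transgenes were induced unequally. In iPSM, dox brought Clock to 1610 and 2250 CPM in Clock/Bmal1 clones 12 and 20, against 92.4 and 96.4 CPM untreated, and to 954 and 986 CPM in ClockBmal1DN clones 7 and 19, against 105 and 101 CPM untreated. Arntl reached 2970 and 4280 CPM in the Clock/Bmal1 clones, against 52.5 and 72.1 CPM untreated. In the ClockBmal1DN clones it reached 828 and 143 CPM, against 39.0 and 61.9 CPM untreated. ClockBmal1DN clone 19 therefore had a 2.3-fold Arntl ratio, against 56.5 and 59.4 in the Clock/Bmal1 clones. In ESC the Arntl ratios were 49.2 and 88.3 in the Clock/Bmal1 clones and 29.7 and 95.5 in the ClockBmal1DN clones, and in the control lines Clock and Arntl ratios lay between 0.958 and 1.06. Counts of transgene and endogenous gene add up here.

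The other facts of the series that bear on these values are few. Library totals were 38.2 to 57.3 M counts (M for mega). Summed CPM of 10 presomitic mesoderm genes was 831 to 1610 in iPSM and 22.2 to 69.6 in ESC, and that of 9 naive pluripotency genes was 190 to 364 in iPSM and 1500 to 2270 in ESC, so both cell types carried their defining markers. The untreated iPSM control library stood apart, with counts over 69.4% of the transcripts, against 50.2 to 54.0% in the other iPSM libraries. It enters no contrast, and the calls for the 8 genes were the same in fits without the control line. On the first principal component of the iPSM libraries (31.4% of the variance) untreated Clock/Bmal1 clone 20 lay at 34.5 and the untreated control at -34.1, with the others from -18.4 to 20.6. Untreated clone 20 enters the contrasts, and the values without it are given where they change a call. No label or header gives a batch.

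Dox-treated Clock/Bmal1 iPSM had 5.97-fold as much Hes1 RNA as the same clones untreated. Hes6, Hey1 and Hey2 were also higher in both clones, and the 95% intervals of Nrarp, Hes5, Hes3 and Heyl included no change. In edgeR's quasi-likelihood test with Benjamini-Hochberg adjustment over all transcripts tested, 1 of the 8 genes passed at an adjusted p under 0.05, Hes1, and it rose; 1.02% of the 24805 transcripts tested passed, 0.996% as higher and 0.0282% as lower. At an unadjusted p under 0.05 there were 4 of the 8, and 1386 of all transcripts tested. The median log2 fold change was 0.45 over the 8 genes and -0.02 over all transcripts tested.

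Hes1 encodes a bHLH repressor that dampens its own gene, which gives it short pulses in many cell types. It was at 87.5 and 92.2 CPM in the dox-treated clones 12 and 20, against 11.5 and 19.1 CPM in the same clones untreated. The groups were far apart, and both dox values were above all other 18 libraries. The clone ratios were 7.59 and 4.83, and the fitted log2 fold change was 2.58 ± 0.249 (SE), a 5.97-fold difference with a 95% interval of 4.08 to 8.73 and an adjusted p of 0.000543. Leaving out any 1 of the 4 libraries gave 2.26 to 2.98. Most of the clone difference lay in the untreated libraries, which differed more from each other than the dox-treated ones.

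Among the neighbours of Hes1, the noncoding transcript 9030404E10Rik lies 25.9 kb away on the opposite strand, at chr16:30021842-30039479. It had 61 and 102 counts in dox-treated Clock/Bmal1 iPSM, against 10 and 7 counts untreated, and its groups were apart. The fitted fold was 9.67, with an adjusted p of 0.00615. The nearest same-strand transcript upstream with at least 1 CPM, Opa1, which encodes a mitochondrial fusion protein, was 410 kb away and had a fitted fold of 1.06, with an adjusted p of 1.0.

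Hes6 encodes a family member known to oppose Hes1 and to favour neuronal differentiation. It was at 30.3 and 33.2 CPM in dox-treated clones 12 and 20, against 15.8 and 20.7 CPM untreated, and the groups did not overlap. The clone ratios were 1.92 and 1.61. In the fit the log2 fold change was 0.82 ± 0.184 (SE), 1.77-fold, with an adjusted p of 0.0752 in edgeR's test, just short of the threshold. With the clone as a block, which pairs each dox library with its untreated one, the value was 0.83 and the adjusted p 0.0195. DESeq2 gave an adjusted p of 0.00621. Without the untreated library of clone 20 the value was 1.03, with an adjusted p of 0.0192 in edgeR's test.

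Hes6 starts 2.76 kb past the 3′ end of Per2, on the same strand. Per2, a circadian repressor and a known E-box target of Clock and Bmal1, was at 13.6 and 20.7 CPM in dox-treated clones 12 and 20, against 3.18 and 1.58 CPM untreated, 7.28-fold in the fit with an adjusted p of 0.00255. The clone with the larger Per2 ratio, clone 20 at 13.1, had the smaller Hes6 ratio, and clone 12 had a Per2 ratio of 4.27. In Clock/Bmal1 ESC the fitted Per2 difference was 21.3-fold, with an adjusted p of 0.015, while the Hes6 ratios there were 1.01 and 0.906. A part of Per2 transcription in the Hes6 values was not tested.

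**Figure D2:**
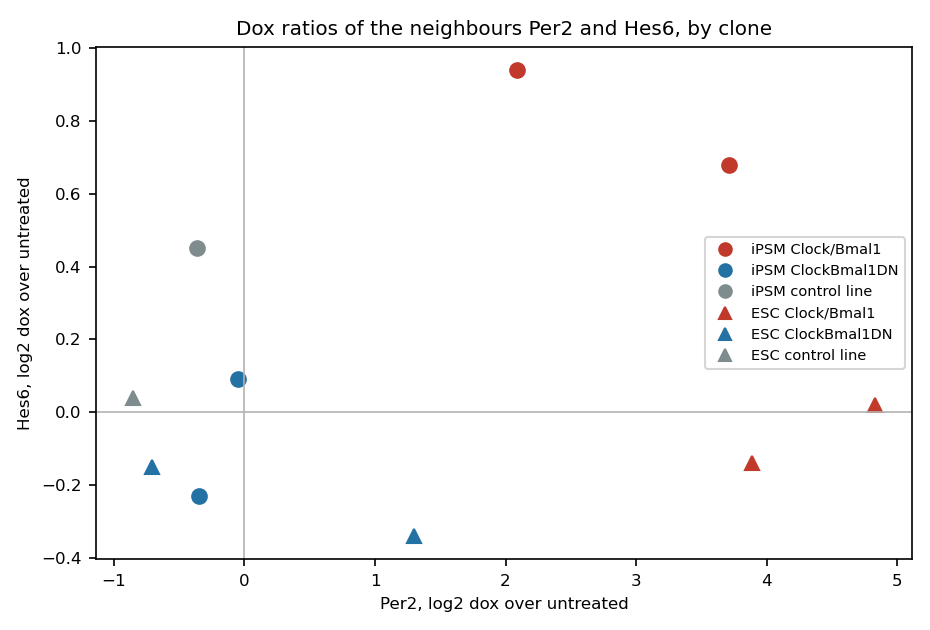
Log2 ratio of dox-treated over untreated CPM for Hes6 against that for the neighbouring gene Per2, 1 point per clone or control line, circles for iPSM and triangles for ESC. The Clock/Bmal1 iPSM clones lie at Per2 values of 2.09 and 3.71 with Hes6 at 0.94 and 0.68, and the Clock/Bmal1 ESC clones at 4.83 and 3.89 with Hes6 at 0.02 and -0.14.

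Hey1 and Hey2 encode Notch-induced repressors with overlapping roles in heart and vessel development. Hey1 had 260 and 706 counts (5.77 and 13.7 CPM) in dox-treated clones 12 and 20, against 108 and 224 counts (2.05 and 4.98 CPM) untreated. Both dox libraries were above both untreated ones, and the clone ratios of 2.82 and 2.76 were almost equal although the clones differed in level. On the log2 scale the fitted difference was 1.51 ± 0.444 (SE), with an adjusted p of 0.279 in edgeR's test. With the clone block it was 1.5 with an adjusted p of 0.00127, with DESeq2 1.5 with an adjusted p of 0.0265, and without the untreated library of clone 20 it was 2.28 with an adjusted p of 0.0346.

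Hey2 had 67 and 144 counts in dox-treated clones 12 and 20, against 30 and 67 counts untreated, which is 1.49 and 2.80 CPM against 0.569 and 1.49 CPM. The groups touch, since treated clone 12 was at the level of untreated clone 20. The fitted log2 fold change was 1.1 ± 0.445 (SE), with an unadjusted p of 0.0311 and an adjusted p of 0.715 in edgeR's test. Heyl, the third Hey gene, had 8 and 23 counts in the dox-treated clones, against 16 and 26 counts untreated. Its ratio of summed counts, scaled by TMM-adjusted library totals, was 0.748 with a counting interval of 0.455 to 1.22.

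Nrarp, the feedback inhibitor, was at 11 and 27.9 CPM in dox-treated clones 12 and 20, against 7.71 and 30.2 CPM untreated. Its promoter window held a CACGTG, while no windows were read for Hes1, Hes3, Hey1 and Heyl. The clones differed from each other more than the treatments did. The fitted log2 fold change was 0.07 with a 95% interval of -1.06 to 1.20, and it hung on single libraries, at -0.60 when untreated clone 12 was left out, -0.77 when treated clone 20 was and 1.36 when its untreated library was. Clone 12 also had less Hes7, at 7.16 CPM against 20.0 CPM in clone 20, both untreated. Its presomitic mesoderm sum, which includes Hes7, was lower too, at 909 against 1290 CPM untreated and 831 against 971 CPM with dox. The part of these in the Nrarp values was not tested. In bulk RNA, fewer cells of a type and less RNA per cell cannot be told apart.

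Hes5, known from neural progenitors, had 22 and 97.5 counts in dox-treated clones 12 and 20, against 23 and 90.5 counts untreated. Clone 20 was several-fold higher than clone 12 with and without dox. The Hes5 ratio of summed counts, scaled by TMM-adjusted library totals, was 1.07 with a counting interval of 0.819 to 1.39. Hes3, known from the early neural tube and the midbrain-hindbrain region, had 0 and 34 counts in the treated clones, against 8 and 31 counts untreated. Neither gene separated by treatment.

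**Figure D3:**
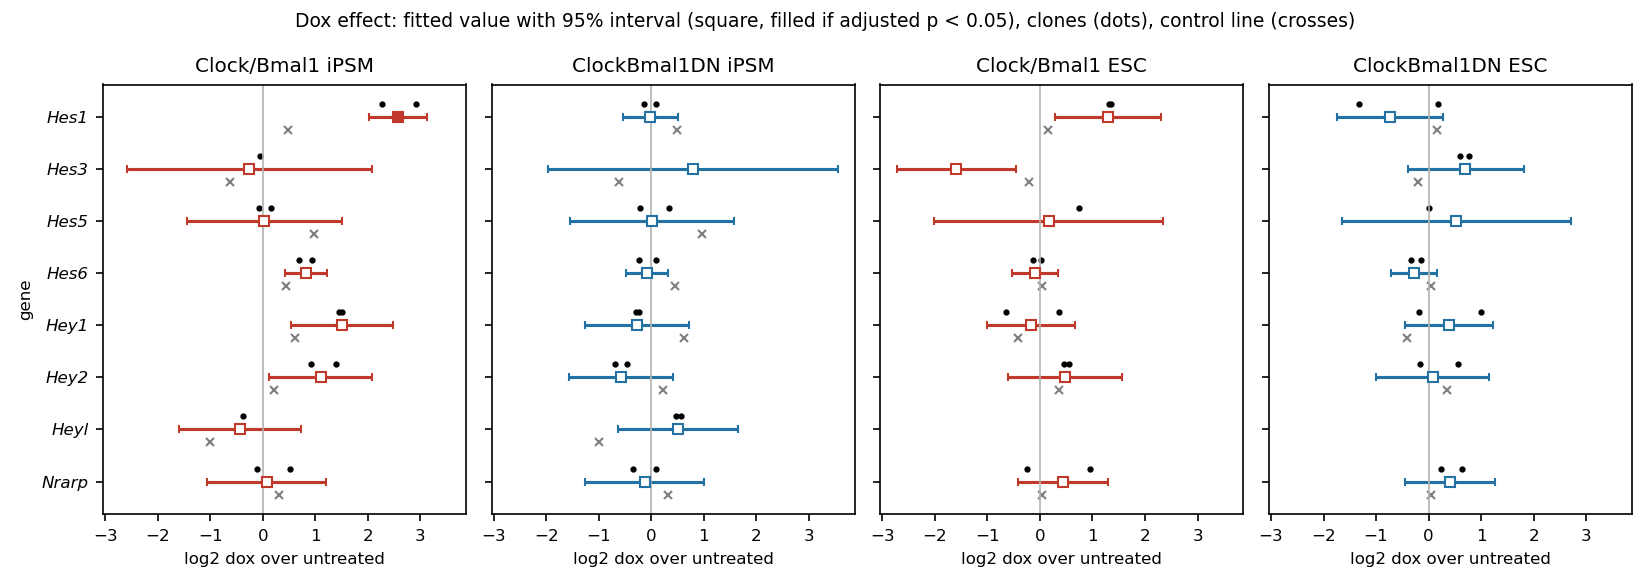
Log2 ratio of dox-treated over untreated libraries for the 8 genes in the 4 kinds of line. Squares are values fitted with edgeR with 95% intervals, filled where the adjusted p is under 0.05, dots are single clones with at least 10 counts in both libraries, and crosses are the unreplicated control line of the same cell type. Only the Hes1 square in Clock/Bmal1 iPSM, at 2.58, is filled, and Heyl has no fitted value in ESC because of its low counts.

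In ClockBmal1DN iPSM none of the 8 genes passed, whichever of edgeR and DESeq2 was used. Hes1 was at 12.4 and 17.8 CPM in dox-treated clones 7 and 19, against 13.8 and 16.8 CPM untreated, and Hes6 was at 17.1 and 17.4 CPM, against 16.1 and 20.4 CPM untreated. The groups overlapped for both genes. The log2 fold change of Hes1 was -0.02, with a 95% interval of -0.54 to 0.51. Hey1 (2.45 and 2.92 CPM, against 2.89 and 3.60 CPM untreated) and Hey2 (0.94 and 1.02 CPM, against 1.53 and 1.40 CPM untreated) were lower with dox in both clones, without passing. With edgeR 0 of the 8 genes passed, 0 had an unadjusted p under 0.05, and DESeq2 also called 0, while 0.00403% of all transcripts tested passed in edgeR. The control line, with no replicate, had Hes1 at 21.3 CPM with dox, against 15.3 CPM without. Its Hes6 was at 16.5 against 12.1 CPM and its Hey1 at 4.64 against 3.03 CPM. Its untreated library is the one that stood apart, with counts over 69.4% of the transcripts, and the part of this was not tested.

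The difference between the dox effects of the Clock/Bmal1 and the ClockBmal1DN lines was tested directly in iPSM. For Hes1 it was 2.59 ± 0.341 on the log2 scale (SE, edgeR), with an adjusted p of 0.011, and this was the 1 gene of the 8 that passed, where 0.278% of the 24805 transcripts tested did. Without treated Clock/Bmal1 clone 20, treated ClockBmal1DN clone 7 or untreated ClockBmal1DN clone 19 the value was 2.55, 2.36 and 2.45, and edgeR's adjusted p 0.0567, 0.0963 and 0.0696. Hey1 differed by 1.77 ± 0.63 (SE) with an adjusted p of 0.964 in edgeR's test, and by 1.76 with an adjusted p of 0.0138 with the clone block. Hey2 differed by 1.67 with an unadjusted p of 0.023 and Hes6 by 0.90 with an unadjusted p of 0.00512, neither passing after edgeR's adjustment. The Clock and Arntl levels given above differed between the same groups, with Arntl at 2970 and 4280 CPM in treated Clock/Bmal1 clones and 828 and 143 CPM in treated ClockBmal1DN clones. Their part in these differences was not tested.

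In Clock/Bmal1 ESC, Hes1 was higher and Hes3 lower with dox in both clones, but neither passed. Hes1 was at 26.7 and 45.2 CPM in dox-treated clones 1 and 7, against 10.5 and 18.1 CPM untreated, and the groups did not overlap. The clone ratios were 2.55 and 2.50. On the log2 scale the fitted difference was 1.30 ± 0.449 (SE), with an unadjusted p of 0.0172 and an adjusted p of 0.481 in edgeR's test. Without the filter on low counts edgeR's adjusted p was 0.00181, but that setting raised the calls over all transcripts in each dox contrast, as given below. DESeq2 and the clone block did not call Hes1 here. Both treated and untreated clone 7 were above their clone 1 counterparts.

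Among the untreated ESC libraries, those with the highest Hes1 also had the highest fibroblast sums. The summed CPM of 7 fibroblast genes, among them collagens Col1a1, Col1a2 and Col3a1, was 229 in treated and 243 in untreated Clock/Bmal1 clone 7, and 471 in untreated ClockBmal1DN clone 6. In the other 7 ESC libraries it was 51.5 to 106. Untreated clones 7 and 6 had Hes1 at 18.1 and 23.6 CPM, against 8.37 to 10.5 CPM in the other 3 untreated libraries. Treated Clock/Bmal1 clone 1 had 26.7 CPM of Hes1 with a fibroblast sum of 106. Of 6 heart and smooth muscle genes, Acta2, a smooth muscle actin, was at 73.9 to 643 CPM in ESC, and the other 5 were at most at 9.42 CPM (Myh6). Within Clock/Bmal1 clone 7 the fibroblast sum was nearly the same with and without dox, while Hes1 was 2.50-fold higher with it. The part of the fibroblast genes in the Hes1 values was not tested. In iPSM the fibroblast sum was 13.5 to 21.3, with 13.5 and 13.8 in the 2 libraries of highest Hes1.

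**Figure D4:**
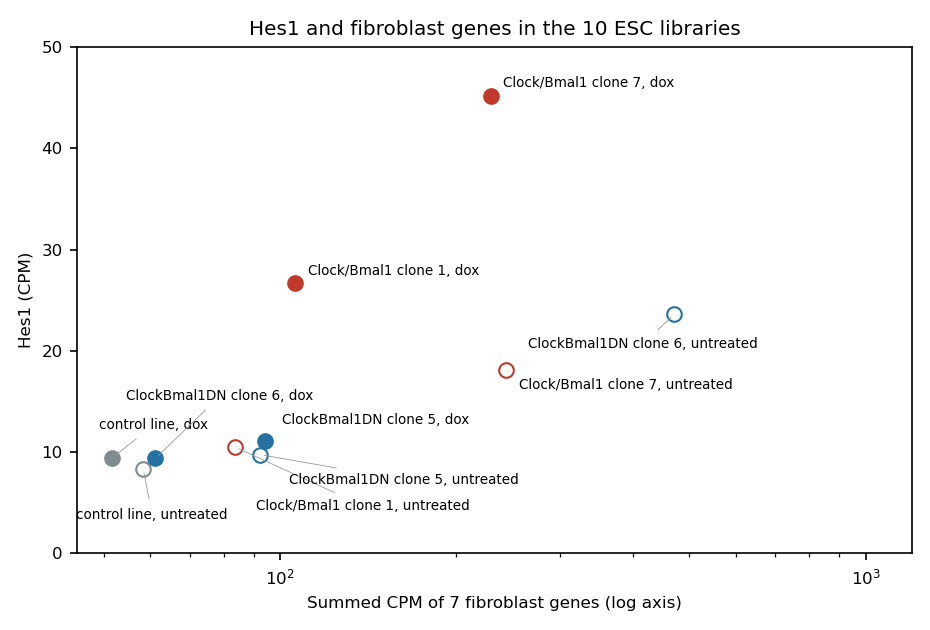
Hes1 (CPM, linear axis) against the summed CPM of 7 fibroblast genes (log axis) in the 10 ESC libraries, filled points dox-treated and open points untreated. Treated Clock/Bmal1 clones 1 and 7 have the highest Hes1, 26.7 and 45.2 CPM, and untreated ClockBmal1DN clone 6 joins a Hes1 of 23.6 CPM with the highest fibroblast sum, 471.

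Hes3 had 9 and 9 counts in dox-treated Clock/Bmal1 ESC clones 1 and 7, against 41 and 31 counts untreated. All 4 values are low, and the groups were apart. The ratio of summed counts, scaled by TMM-adjusted library totals, was 0.335, with a counting interval of 0.188 to 0.568 that leaves out the spread between clones. The fitted log2 fold change was -1.60 ± 0.503 (SE), with an unadjusted p of 0.0108 and an adjusted p of 0.394 in edgeR's test. The ClockBmal1DN clones went the other way, with 28 and 16 counts treated, against 16.5 and 12 counts untreated, and the difference of the effects was -2.30, with an unadjusted p of 0.00926 and an adjusted p of 0.731 in edgeR's test.

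In Clock/Bmal1 ESC, Hes6, Hey1 and Nrarp overlapped between treated and untreated clones, and the Hey2 groups did not; none of these 4 genes passed. Hes6 was at 34.2 and 30.3 CPM treated, against 33.8 and 33.5 CPM untreated, a log2 fold change of -0.09 with a 95% interval of -0.53 to 0.35. Hey1 was at 2.41 and 3.44 CPM treated, against 3.79 and 2.68 CPM untreated, so the clones moved in opposite directions. Hey2 was at 0.752 and 1.06 CPM treated, against 0.547 and 0.722 CPM untreated, higher in both clones by ratios of 1.38 and 1.47. The Hey2 ratio was 1.29 in the unreplicated control line, and 1.48 and 0.893 in ClockBmal1DN clones 5 and 6. Nrarp was at 2.73 and 6.03 CPM treated, against 3.22 and 3.12 CPM untreated. Hes5 had 1 and 15 counts treated, against 7 and 12.5 counts untreated, and Heyl had at most 8.5 counts in any ESC library and was not tested there.

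With edgeR, 0 of the 7 genes tested passed in Clock/Bmal1 ESC, where 0.422% of 22500 transcripts did (0.404% higher and 0.0178% lower), while 2 of the 7 and 1686 of all transcripts had an unadjusted p under 0.05, and DESeq2 called 0 of the 7. In ClockBmal1DN ESC 0 passed, against 0.00444% of transcripts, where 0 of the 7 and 900 of all transcripts had an unadjusted p under 0.05, and DESeq2 called 0 of the 7. Hes1 there was at 11.1 and 9.38 CPM in treated clones 5 and 6, against 9.75 and 23.6 CPM untreated. Clone 5 was nearly level and clone 6 had a ratio of 0.397, which rests on the untreated library with the highest fibroblast sum. The fitted log2 fold change was -0.74, and 0.05 without that library. For the difference between the lines in ESC, 0 of 7 passed, against 0.0578% of transcripts, where 2 of the 7 and 1070 of all transcripts had an unadjusted p under 0.05, and DESeq2 called 0 of the 7. Hes1 differed there by 2.04 ± 0.634 (SE), with an adjusted p of 0.75 in edgeR's test, and by 1.25 with an adjusted p of 1.0 without untreated ClockBmal1DN clone 6.

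The Clock/Bmal1 effect was then compared between iPSM and ESC in 1 edgeR fit of all 20 libraries. The difference of the log2 effects was 1.22 for Hes1, with a 95% interval of 0.08 to 2.36, 0.86 for Hes6, with an interval of 0.29 to 1.43, and 1.62 for Hey1, with an interval of 0.26 to 2.98. All 3 were larger in iPSM, with unadjusted p-values of 0.0376, 0.00584 and 0.0228 and adjusted p of 1.0 each. In edgeR 0 of the 8 genes passed, as did 0% of the 26689 transcripts tested, of which 1074 had an unadjusted p under 0.05, and DESeq2 called 0 of the 8. The cell types also differed in dose, time and parent line.

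Before any dox, the 4 untreated Clock/Bmal1 and ClockBmal1DN clones of each cell type differed at several of the genes. Nrarp, Hes5 and Heyl were higher in iPSM and Hes6 was lower, and these 4 of the 8 passed in edgeR, where 60.0% of the 26689 transcripts tested passed, 31.3% higher and 28.8% lower. The share among the 8 was thus close to that among all transcripts. Nrarp averaged 19.8 ± 9.31 CPM in untreated iPSM clones and 3.05 ± 0.205 CPM in untreated ESC clones (SD, n = 4 each), a log2 difference of 2.7 ± 0.381 (SE) with an adjusted p of 1.99e-05. Every iPSM library was above every ESC library, with 7.71 CPM the lowest in iPSM and 6.03 CPM the highest in ESC. The clones carried different Nrarp levels in iPSM, but stayed close together in untreated ESC.

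Hes6 averaged 18.3 ± 2.67 CPM in untreated iPSM clones and 38.2 ± 5.47 CPM in untreated ESC clones (SD, n = 4 each), a log2 difference of -1.05 ± 0.136 (SE) with an adjusted p of 7.85e-06 in edgeR's test. The ranges were 15.8 to 20.7 CPM in iPSM and 33.5 to 44.7 CPM in ESC and did not overlap. Dox-treated Clock/Bmal1 iPSM, at 30.3 and 33.2 CPM, overlapped the range of 30.3 to 34.2 CPM in dox-treated Clock/Bmal1 ESC. The ESC control line had the highest Hes6 of all, 61.6 CPM with and 60.0 CPM without dox.

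Hes5 and Heyl rested on few counts. Hes5 averaged 1.01 ± 0.709 CPM in untreated iPSM clones and 0.185 ± 0.0689 CPM in untreated ESC clones (SD, n = 4 each), a log2 difference of 2.42 ± 0.628 (SE) with an adjusted p of 0.0037 in edgeR's test. The untreated ESC control library, outside this contrast, had 0.878 CPM, inside the iPSM range. Heyl averaged 0.404 ± 0.12 CPM in iPSM and 0.052 ± 0.0766 CPM in ESC, a log2 difference of 3.47 ± 0.797 (SE) with an adjusted p of 0.00149, and its 10 ESC libraries together held 21.5 counts.

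Hes1, Hey1, Hey2 and Hes3 did not pass between the untreated cell types. Hes1 averaged 15.3 ± 3.32 CPM in iPSM and 15.5 ± 6.6 CPM in ESC (SD, n = 4 each), a log2 difference of -0.01 with a 95% interval of -0.59 to 0.56. Without ClockBmal1DN ESC clone 6, the library with the fibroblast sum of 471, it was 0.37. Hey2 averaged 1.25 ± 0.455 CPM in iPSM and 0.718 ± 0.256 CPM in ESC, a log2 difference of 0.77 with an adjusted p of 0.0646 in edgeR's test. It passed without ESC ClockBmal1DN clone 6 (1.08, adjusted p of 0.0277) and without iPSM Clock/Bmal1 clone 12 (1.04, adjusted p of 0.0144). Hey1 differed by 0.28, with an adjusted p of 0.469 in edgeR's test. Hes3 differed by -1.05, with an adjusted p of 0.205, and by -1.11 with 0.0371 without the filter on low counts.

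Across the 12 groups of cell type, line and treatment, Hes1 was highest in treated Clock/Bmal1 iPSM, with a mean of 89.8 CPM, then treated Clock/Bmal1 ESC, with 36.0 CPM, and each of these stood apart from the next. The next 8 groups, from 21.3 to 10.2 CPM, formed a chain in which neighbouring groups overlapped, and the ESC control line was lowest at 9.38 and 8.37 CPM. For Hey1, treated Clock/Bmal1 iPSM led at 9.76 CPM, apart from the treated iPSM control at 4.64 CPM, and the groups from 3.58 CPM down overlapped their neighbours. For Nrarp all 6 iPSM groups, from 45.8 to 18.8 CPM, preceded the 6 ESC groups, from 4.38 to 2.93 CPM. For Hey2 the order began with treated Clock/Bmal1 iPSM at 2.15 CPM, which overlapped the treated iPSM control at 1.67 CPM.

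The rest of the pathway was read from 57 genes in 9 lists of ligands, receptors, glycosyltransferases, cleavage enzymes, nuclear partners, co-repressors, inhibitors, further Hes family genes and known Hes targets. In Clock/Bmal1 iPSM 3 of the 52 tested passed in edgeR, all higher, where 1.02% of all transcripts tested passed. In Clock/Bmal1 ESC 1 of 53 passed, where 0.422% of all transcripts did. In ClockBmal1DN 0 of 52 passed in iPSM and 0 of 53 in ESC, where 0.00403% and 0.00444% of all transcripts did. When the difference between the lines was tested directly, 0 of 52 passed in iPSM, where 0.278% of all transcripts did. In ESC 1 of 53 passed that test, Lfng with an adjusted p of 0.0483 in edgeR, where 0.0578% of all transcripts did. The median log2 fold change of the 52 was 0.04 in Clock/Bmal1 iPSM, and all transcripts tested had -0.02.

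Lfng encodes the fringe glycosyltransferase that tunes Notch for its ligands and oscillates in the presomitic mesoderm. It was at 43.7 and 89.3 CPM in treated Clock/Bmal1 iPSM clones 12 and 20, against 7.35 and 19.3 CPM untreated, 5.09-fold in the fit with an adjusted p of 0.0253. In Clock/Bmal1 ESC it was at 92.4 and 104 CPM in treated clones 1 and 7, against 13.4 and 14.2 CPM untreated, 6.99-fold with an adjusted p of 0.00298. The groups were apart in both cell types, and clone 20 was above clone 12 with and without dox, as it was for Hey1. The ligand gene Dll4 passed in iPSM, with 59 and 99.5 counts treated, against 10 and 2.5 counts untreated, 13.5-fold in the fit with an adjusted p of 0.0141. In ESC Dll4 had 51.5 and 36 counts treated, against 5 and 9 counts untreated, with an adjusted p of 0.099 in edgeR's test.

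Helt, a bHLH repressor related to the Hes and Hey families and known from midbrain neurons, had 26 and 37 counts in treated Clock/Bmal1 iPSM and 0 in both untreated clones. Taking 3 counts over the untreated group as the floor gives 21.3-fold, and the counting interval of the ratio starts at 16.8-fold. The adjusted p of Helt was 0.0337 in edgeR's test. In Clock/Bmal1 ESC it had 26 and 54.5 counts treated, against 1 and 0 counts untreated, with an adjusted p of 0.101. The ClockBmal1DN clones had at most 3 counts in iPSM and 0 in ESC, while the untreated ESC control library had 14. Hes7 had 948.5 and 1544.5 counts in treated Clock/Bmal1 iPSM clones 12 and 20, against 378 and 898.5 counts untreated. The ratios were 2.94 and 1.5, with an adjusted p of 0.691 in edgeR's test. The unreplicated iPSM control line had a Hes7 ratio of 1.34, at 29.1 CPM with dox against 21.7 CPM without.

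**Figure D5:**
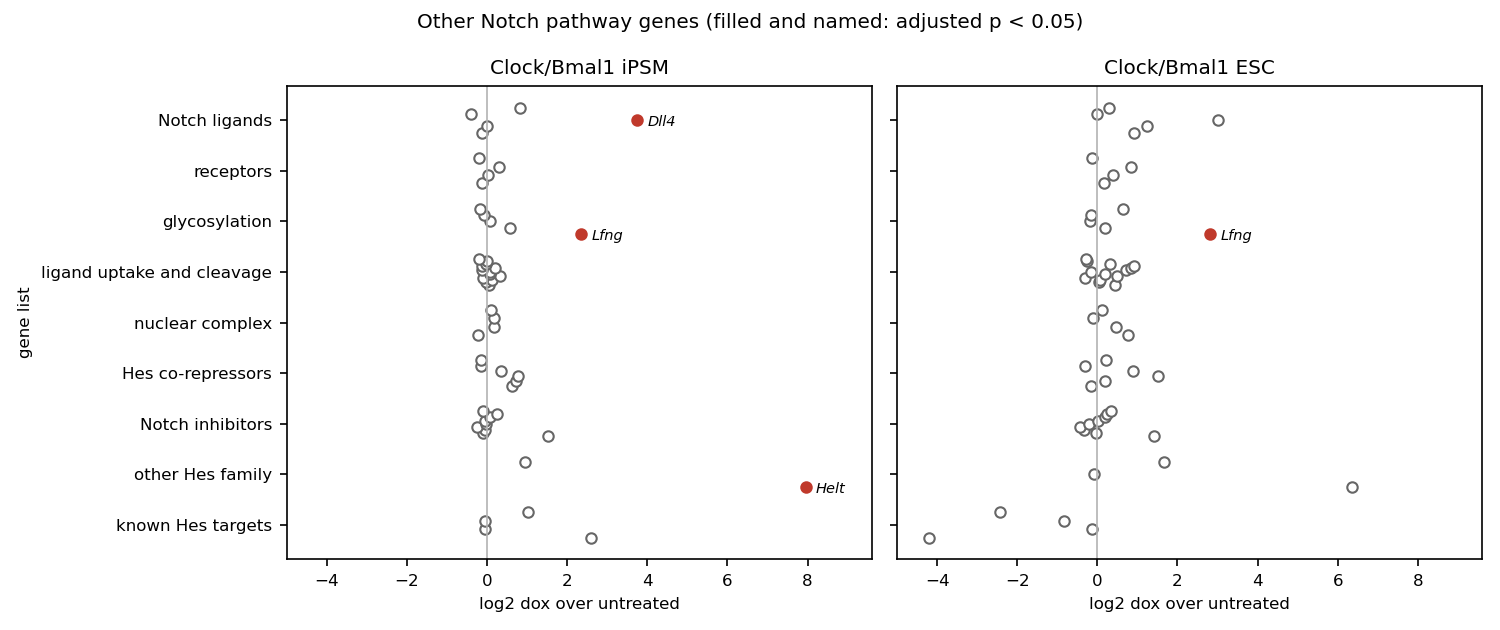
Fitted log2 ratio of dox-treated over untreated Clock/Bmal1 libraries for the tested genes of the 9 Notch pathway lists, iPSM on the left and ESC on the right, 1 point per gene. Filled, named points have an adjusted p under 0.05 in edgeR, and these are Dll4, Lfng and Helt in iPSM and Lfng in ESC. The position of Helt depends on the prior count, since its untreated iPSM libraries hold no reads.

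Between the untreated cell types, 22 of the 54 pathway genes tested were higher in iPSM and 17 lower in edgeR, where 31.3% of all transcripts were higher and 28.8% lower, so the counts of each list stand against a background in which most transcripts passed. Among ligands, Dll1 was 21.6-fold and Dll3 7.77-fold higher, and Dll4 and Jag2 were lower. Among receptors, Notch1 was 4.05-fold and Notch2 1.57-fold higher. The 3 Mastermind co-activators passed as higher, Maml3 by 42.4-fold, and of the 6 co-repressors 1 was higher and 4 were lower, with Tle5 at 0.316 and Sirt1 at 0.448 of the ESC level. Of 9 inhibitors 4 were higher and 3 lower, with Dtx1 at 0.108 and Numbl at 0.479 of the ESC level. The oscillator gene Hes7 was 169-fold higher, at 15.2 ± 5.68 CPM in untreated iPSM clones and 0.0926 ± 0.0564 CPM in untreated ESC clones (SD, n = 4 each).

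Finally, the genes whose pattern over the 20 libraries was closest to a member were found for the 3 members with a mean of at least 5 CPM, among 10867 genes at that level. Closeness was the root mean square difference of log2 CPM, each gene centred on its mean. For Hes1, which itself varied by 0.95 on this scale, Atf3 and Stambpl1 were closest, at 0.495 and 0.521. For Hes6 (0.644) they were Tst and Mepce, at 0.23 and 0.237, and for Nrarp (1.34) Mex3b and Dll3, at 0.328 and 0.382. The libraries share clones and cell types, so these are descriptions.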

How the data were processed

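Stranded total RNA was read as 101-base paired ends, per the labels. Per the submitters' processing notes, bcl2fastq, STAR 2.7.2a and HOMER were used with mm10. The authors deposited, for each cell type, gene-body expected counts in steps of 0.5 (18.1% of counts end in 0.5) with no normalisation per the file headers. The authors also deposited RPKM, and recomputing these values from counts, gene body length and header totals matched for 100% of entries within 1% plus 0.001. CPM values divide the counts by library totals, of 38.2 to 57.3 M (M for mega) before adjustment, times TMM factors over the 20 libraries. Ratios of summed counts used the same adjusted totals. Counts were rounded and fitted with edgeR 4.0.16 (R 4.3.3; TMM, filterByExpr, glmQLFit and glmQLFTest), 10 libraries and 6 groups per cell type, or 20 libraries and 12 groups between cell types, with two-sided tests at an adjusted p under 0.05. The script was tested on simulated data.

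The alternatives were DESeq2 1.42.0, its size factors, no filter on low counts, no control line, a clone block and each library left out. The clone numbers pair treated and untreated libraries of the same clonal line, and correlations of same-clone deviations over 15488 genes were 0.658 and -0.0978 in ESC and 0.272 and 0.312 in iPSM (Clock/Bmal1, ClockBmal1DN). Intervals on summed counts and the floor of 3 counts cover counting error only, at 95%. The members, pathway and marker lists were chosen with earlier results of these data known. The 8 genes were always named, pathway lists gave up to 2 genes that passed, and genes outside these rules (9030404E10Rik, Opa1, Per2, Clock and Arntl, and Dll3, Dll4 and Hes7 where they did not lead their list) were named after their values were seen. The 2 genes most like a member in pattern were taken among genes with a mean of at least 5 CPM.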

Additional observations from a re-analysis of the deposited data

Results flagged for a closer look

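The dox effect on Hes1 in iPSM differed between the Clock/Bmal1 and the ClockBmal1DN lines, by 2.59 on the log2 scale with an adjusted p of 0.011 in edgeR's test of the difference itself. The clone ratios were 7.59 and 4.83 in the Clock/Bmal1 clones and 0.899 and 1.06 in the ClockBmal1DN clones. Transgene levels differed between the same groups, and their part in the difference was not tested.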

How the results depend on the processing

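The rise of Hes1 in Clock/Bmal1 iPSM kept its direction and passed under every alternative run, from 2.26 to 2.98 on the log2 scale. Of the 8 genes, 3 passed in Clock/Bmal1 iPSM (Hes1, Hes6 and Hey1) with the clone as replicate block, with DESeq2 or without the filter on low counts, and 1 to 3 with single libraries left out. For the difference between the lines in iPSM, 2 passed with the replicate block or without the filter (Hes1 and Hey1), and 0 to 1 with libraries left out. In ESC, 1 (Hes1) passed without the filter, in Clock/Bmal1 and in the difference between the lines. Over all transcripts, calls without the filter were 537 in Clock/Bmal1 ESC (95 with it), 463 in ClockBmal1DN ESC (1), 410 for their difference (13), 597 in Clock/Bmal1 iPSM (254), 8 in ClockBmal1DN iPSM (1), 280 for their difference (69) and 87 for iPSM minus ESC (0). DESeq2 called 355, 7 and 129 in ESC in that order, 154 for the difference in iPSM and 16 for iPSM minus ESC. In Clock/Bmal1 iPSM DESeq2 and the replicate block each called 375 (254). The replicate block gave 158 in Clock/Bmal1 ESC, 25 for the difference in ESC, 132 for that in iPSM and 2 for iPSM minus ESC; beyond Hes6 and Hey1 in iPSM it changed no call for the 8 genes. Leaving out libraries gave 7 to 90 in Clock/Bmal1 ESC, 0 to 2 in ClockBmal1DN ESC, 0 to 8 for their difference, 83 to 678 in Clock/Bmal1 iPSM, 1 to 2 in ClockBmal1DN iPSM and 16 to 167 for their difference. The cause of these shifts was not tested. No paired analysis was possible because no clone was measured in both cell types, for untreated iPSM over ESC.

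Signs turned for values near 0 with single libraries left out. In Clock/Bmal1 ESC, Hes6 ran from -0.17 to 0.04 (above 0 without treated clone 7) and Hey1 from -0.41 to 0.08 (0.08 without untreated and 0.07 without treated clone 1). In ClockBmal1DN ESC, Hes1 ran from -1.25 to 0.05, the last without untreated clone 6. In ClockBmal1DN iPSM, Hes1 ran from -0.30 to 0.22, with 0.22 and 0.12 without treated clone 7 and untreated clone 19. Nrarp in Clock/Bmal1 iPSM ran from -0.77 (without treated clone 20) to 1.36, with -0.60 without untreated clone 12. Between untreated cell types, Hes1 ran from -0.26 to 0.37 and was above 0 without ESC clones 7 and 6 (0.21, 0.37) and iPSM clones 12 and 7 (0.15, 0.05). Hey1 ran from -0.10, without iPSM clone 20, to 0.54. With 2 clones per group, and under 1 CPM for Hes3, Hes5 and Heyl in most libraries, small dox effects on these genes were not detectable within a cell type.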
